A study of Mus musculus with 18 samples.

Results

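Acp5, Ctsk, Atp6v0d2, Calcr, Ibsp, Sp7, Alpl, Dmp1, Phex and Vdr are 10 genes of bone-resorbing and bone-forming cells, taken here with the vitamin D receptor that acts in both, out of 19937 genes with a tested probe set in mouse dura mater. They were chosen because earlier results of these arrays showed Acp5 and Vdr higher in the dura of naive Kit-mutant mice, so their naive differences between Kit-mutant and wild-type mice are described here without a test. Each gene had 1 probe set with a single gene symbol. In naive dura of Kit-mutant mice, Acp5, Ctsk, Atp6v0d2, Calcr, Ibsp and Vdr lay above naive wild type in every array, as 3.58% of all probe sets did. After stroke, Acp5, Ctsk and Atp6v0d2 rose in wild-type dura, where 6.24% of all probe sets rose. They were set against naive wild-type arrays that also went into the choice of the genes, which favours such rises. Without wild-type stroke array 2, 0 of these 3 calls held. Between Kit-mutant and wild-type dura after stroke, 0 of the 10 genes passed the threshold used, an adjusted p under 0.05, where 2.27% of all probe sets did.

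Expression had been read from dura, the tough outer sheath of the brain, taken from 18 male mice (17 to 21 weeks old), with 1 mouse on each Affymetrix array and 3 arrays in each of 6 groups. The engrafted mice were WBB6F1-KitW/W-v animals that had been given mast cells by vein 8 to 10 weeks earlier. The mast cell-deficient mice were WBB6F1-KitW/W-v animals without that graft, so both of these categories carry the mutant Kit alleles in all of their own cells, and the wild-type mice were WBB6F1-Kit+/+. Within each category, 3 mice had a stroke, made by blocking the middle cerebral artery for 30 minutes with a filament 2 days before the dura was taken, and 3 age-matched mice were naive. The naive mice had no sham operation (sham-operated mice were not analysed here), so the stroke differences hold the effect of surgery as well.

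Bone is resorbed by osteoclasts, large cells that fuse from precursors of the monocyte line under the cytokines RANKL and M-CSF, seal off a patch of bone, acidify it and digest its matrix with cathepsin K. Osteoblasts lay down and mineralise the matrix, and those that become buried in it live on as osteocytes. The dura lies against the inner surface of the skull, serves as its inner periosteum, and can carry skull cells with it when it is peeled off. In whole dura, fewer cells of a type and less RNA per cell cannot be told apart.

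All values below are log2 summary values, on which a step of 1 is a doubling, and differences are limma estimates with their standard error (SE). A gene is said to have risen or fallen where the adjusted p over 21640 probe sets was under 0.05. Array medians lay between 7.77 and 7.91 and lower quartiles between 6.09 and 6.23. In every array, 9 of the 10 genes lay above all of these lower quartiles, the exception being Calcr. All 10 of 10 markers of dura and meningeal fibroblasts were above the array median on every array. Cpa3, a mast cell protease, was at most 5.82 in the deficient arrays and at least 8.39 in all others, as the labels call for. Kit itself does not check the genotype, since the position of its probe set was not used.

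Of the genes, 8 of 10 matched the RefSeq promoter table, with 13 windows of 250 bases upstream of a start site; Atp6v0d2 and Sp7 are named only. Windows of 4 genes whose levels the results turn on are shown, on build GRCm38.p6 and 5′ to 3′ along the gene. The Acp5 window, at chr9:22130599-22130848 on the minus strand, is the one of its 3 windows that held a match. Ctsk lies at chr3:95498960-95499209 on the plus strand, Ibsp at chr5:104299037-104299286 on the plus strand and Vdr at chr15:97908297-97908546 on the minus strand. Capitals mark matches to any of 5 motifs, searched on both strands.
Acp5: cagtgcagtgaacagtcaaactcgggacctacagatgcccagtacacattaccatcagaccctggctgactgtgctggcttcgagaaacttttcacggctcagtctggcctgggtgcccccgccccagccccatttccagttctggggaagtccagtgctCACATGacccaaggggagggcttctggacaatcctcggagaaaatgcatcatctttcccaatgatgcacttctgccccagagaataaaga
Ctsk: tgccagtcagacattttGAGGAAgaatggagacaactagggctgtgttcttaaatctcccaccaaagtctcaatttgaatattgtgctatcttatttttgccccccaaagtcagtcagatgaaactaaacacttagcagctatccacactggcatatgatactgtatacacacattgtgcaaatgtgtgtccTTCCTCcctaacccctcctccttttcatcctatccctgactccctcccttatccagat
Ibsp: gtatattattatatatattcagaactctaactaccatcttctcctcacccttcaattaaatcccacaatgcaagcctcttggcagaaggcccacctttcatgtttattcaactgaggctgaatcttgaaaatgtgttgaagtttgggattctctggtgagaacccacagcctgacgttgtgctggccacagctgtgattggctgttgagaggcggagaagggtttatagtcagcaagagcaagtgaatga
Vdr: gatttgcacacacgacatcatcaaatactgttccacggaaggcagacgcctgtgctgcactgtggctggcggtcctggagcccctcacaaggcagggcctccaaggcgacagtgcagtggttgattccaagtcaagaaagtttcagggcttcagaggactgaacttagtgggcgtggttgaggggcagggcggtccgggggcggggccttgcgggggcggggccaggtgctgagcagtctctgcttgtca
The motifs were TGANTCA of AP-1, CATGTG of the E-box kind bound by MITF, GAGGAA of the Ets core, TGTGGT of Runx factors and AGGTCA of nuclear receptors. They occur in 6.75%, 12.3%, 23.3%, 14% and 14% of 32851 windows of this length. Acp5 holds 1 CATGTG match, read as CACATG on the shown strand, and Ctsk holds 2 GAGGAA matches, 1 of them as TTCCTC. Ibsp and Vdr show 0 matches, which says only that these letters are not in these windows. A match describes the sequence and no binding was measured here.

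**Figure D1:**
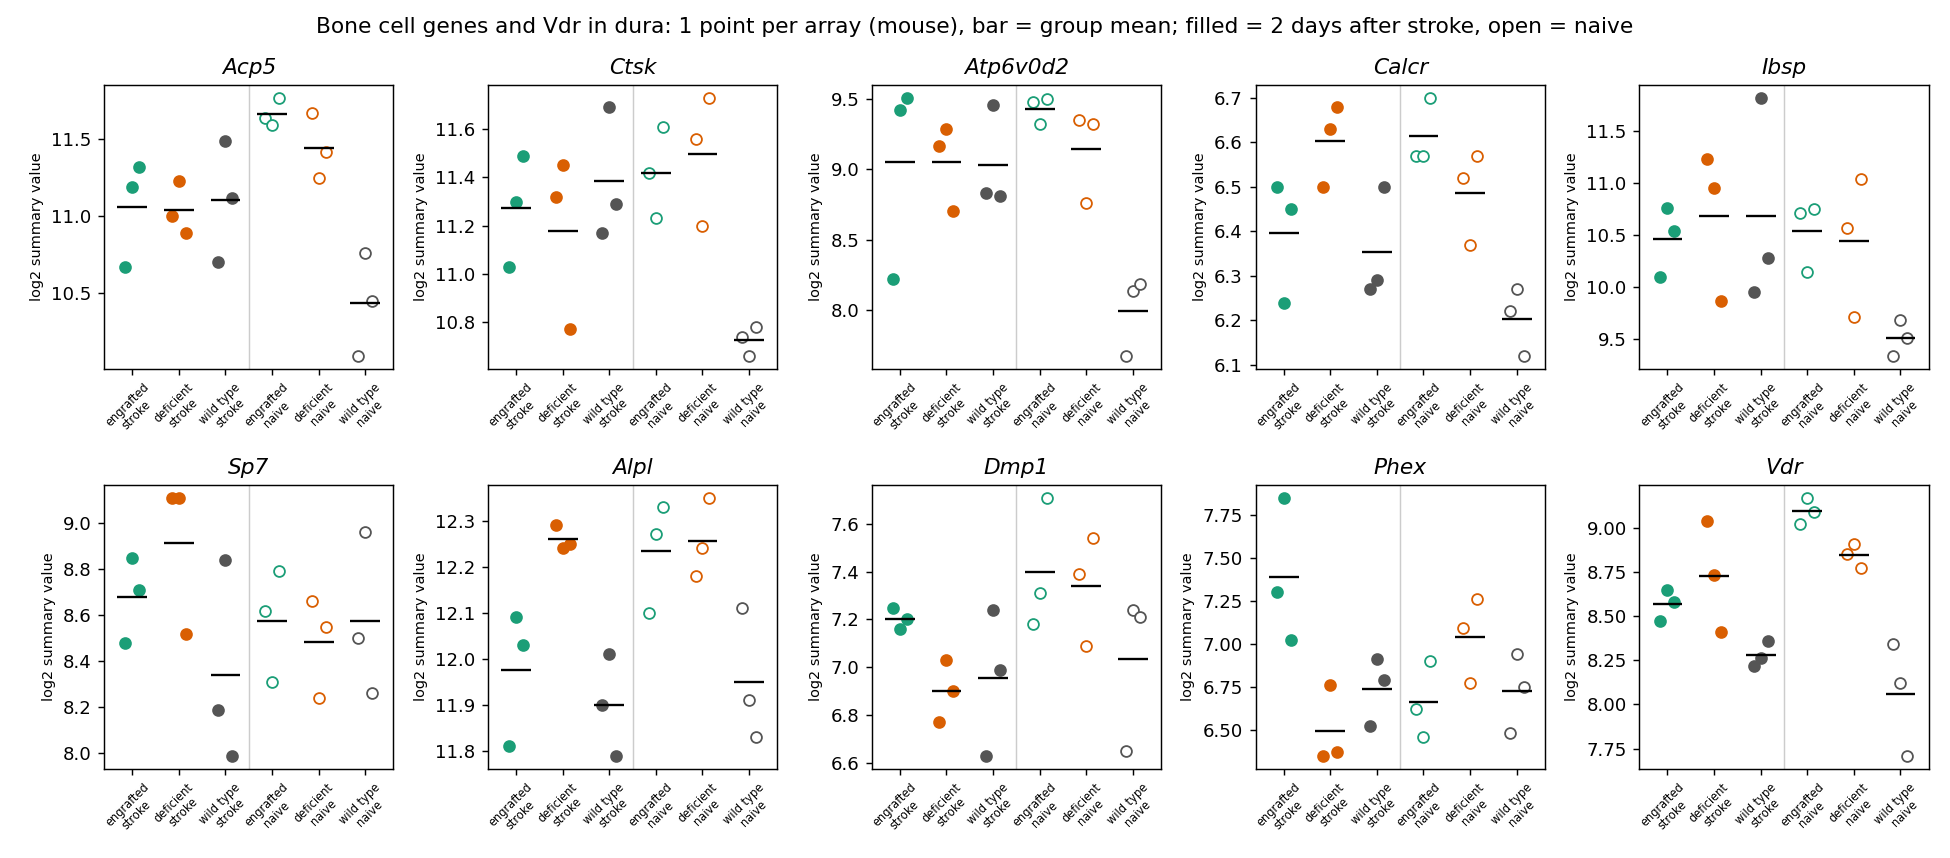
Log2 summary values of the 10 genes, 1 panel per gene and 1 point per array, with filled points for stroke, open points for naive dura and a bar at the mean of the 3 arrays. Naive wild type, at the right of each panel, is the lowest group in Acp5, Ctsk, Atp6v0d2, Calcr, Ibsp and Vdr.

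Among the osteoclast genes, Acp5 encodes tartrate-resistant acid phosphatase, the enzyme by which osteoclasts are stained. After stroke its probe set (10591739) read 10.67, 11.19 and 11.32 in engrafted dura, 11.00, 11.23 and 10.89 in deficient dura, and 10.70, 11.49 and 11.12 in wild-type dura. In naive dura it read 11.64, 11.59 and 11.77 in engrafted mice and 11.67, 11.25 and 11.42 in deficient mice, against 10.09, 10.76 and 10.45 in wild type. All 6 naive Kit-mutant arrays lay above the 3 naive wild-type arrays, and the 3 stroke groups overlapped. The naive difference from wild type was 1.23 ± 0.21 (SE) in engrafted dura, 2.35-fold, and 1.02 ± 0.21 in deficient dura, 2.02-fold.

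Ctsk encodes cathepsin K, the protease that osteoclasts release on to bone collagen. Its probe set (10494262) read 11.03, 11.30 and 11.49 in engrafted, 11.32, 11.45 and 10.77 in deficient and 11.17, 11.69 and 11.29 in wild-type dura after stroke. Naive levels were 11.42, 11.23 and 11.61 in engrafted and 11.56, 11.20 and 11.73 in deficient dura, against 10.74, 10.66 and 10.78 in wild type. Naive wild type was low and tight, and its highest array stood just above the lowest deficient array after stroke. The naive differences were 0.69 ± 0.18 for engrafted and 0.77 ± 0.18 for deficient against wild type.

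Atp6v0d2 encodes the d2 subunit of the membrane part of the proton pump with which osteoclasts acidify bone, and mice without it have osteoclasts that fuse poorly. After stroke, probe set 10511779 read 8.22, 9.42 and 9.51 in engrafted, 9.17, 9.29 and 8.70 in deficient and 8.83, 9.46 and 8.81 in wild-type dura. In naive mice it read 9.48, 9.32 and 9.50 with engraftment and 9.35, 8.76 and 9.32 in deficient dura, against 7.67, 8.13 and 8.18 in wild type. No other group reached down into the naive wild-type range. The naive differences, 1.44 ± 0.29 for engrafted and 1.15 ± 0.29 for deficient dura, were the largest among the 10 genes.

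Calcr encodes the calcitonin receptor, through which calcitonin halts osteoclasts. Its signal lay near the lower quartile of the arrays, above which 1 of the 3 naive wild-type arrays stood. Stroke levels (probe set 10542929) were 6.50, 6.24 and 6.45 in engrafted, 6.50, 6.63 and 6.68 in deficient and 6.27, 6.29 and 6.50 in wild-type dura. Naive levels were 6.57, 6.57 and 6.70 in engrafted and 6.52, 6.37 and 6.57 in deficient dura, against 6.22, 6.27 and 6.12 in wild type. The naive differences of 0.41 ± 0.09 and 0.28 ± 0.09 are small steps near the lower end of the array's range, though the arrays did not overlap.

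Of the bone-forming genes, Ibsp encodes bone sialoprotein, an acidic matrix protein of mineralising osteoblasts. After stroke, its probe set (10523701) read 10.10, 10.76 and 10.54 in engrafted, 11.23, 10.95 and 9.87 in deficient and 9.95, 11.82 and 10.28 in wild-type dura. Naive levels were 10.71, 10.15 and 10.75 in engrafted and 10.57, 9.71 and 11.04 in deficient dura, against 9.34, 9.69 and 9.51 in wild type. The lowest naive deficient array (9.71) stood barely above the highest naive wild-type array (9.69). The naive differences were 1.02 ± 0.44 for engrafted and 0.92 ± 0.44 for deficient dura, with the widest error of the 10 genes.

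Sp7 encodes osterix, the transcription factor without which osteoblasts do not form. After stroke it read 8.48, 8.85 and 8.71 in engrafted, 9.11, 9.11 and 8.52 in deficient and 8.19, 8.84 and 7.99 in wild-type dura (probe set 10433003). In naive dura it read 8.62, 8.31 and 8.79 in engrafted and 8.66, 8.24 and 8.55 in deficient mice, against 8.50, 8.96 and 8.26 in wild type. All 3 naive groups overlapped, and the naive deficient difference was -0.09 ± 0.23. Osterix did not follow Ibsp in naive dura.

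Alpl encodes tissue-nonspecific alkaline phosphatase, which clears pyrophosphate so that bone can mineralise and which meningeal cells and vessels also express. Stroke levels (probe set 10517587) were 11.81, 12.09 and 12.03 in engrafted, 12.29, 12.24 and 12.25 in deficient and 11.90, 12.01 and 11.79 in wild-type dura. Naive levels were 12.10, 12.27 and 12.33 in engrafted and 12.18, 12.24 and 12.35 in deficient dura, against 12.11, 11.91 and 11.83 in wild type. Deficient dura lay above wild type in all arrays in both states, whereas naive engrafted and wild-type dura touched at 12.10 and 12.11. The naive differences were 0.29 ± 0.09 for engrafted and 0.31 ± 0.09 for deficient dura.

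Dmp1 and Phex are osteocyte genes: dentin matrix protein 1 binds mineral, and the peptidase PHEX keeps the phosphate hormone FGF23 low. Dmp1 (probe set 10523693), which lies next to Ibsp on chromosome 5, read 7.25, 7.16 and 7.20 in engrafted, 6.77, 7.03 and 6.90 in deficient and 6.63, 7.24 and 6.99 in wild-type dura after stroke. In naive mice it read 7.18, 7.31 and 7.71 in engrafted and 7.39, 7.09 and 7.54 in deficient dura, against 6.65, 7.24 and 7.21 in wild type. Naive groups overlapped, and after stroke every engrafted array lay above every deficient one.

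Phex (probe set 10607499) read 7.30, 7.85 and 7.02 in engrafted, 6.35, 6.76 and 6.37 in deficient and 6.52, 6.91 and 6.79 in wild-type dura after stroke. In naive mice it read 6.62, 6.46 and 6.90 in engrafted and 7.09, 6.77 and 7.26 in deficient dura, against 6.48, 6.94 and 6.75 in wild type. Stroke dura of engrafted mice was the highest group and that of deficient mice the lowest, an order no other gene of the 10 showed.

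Vdr encodes the receptor of calcitriol, the active form of vitamin D, a nuclear receptor through which osteoblasts are driven to make RANKL. Its probe set (10432032) read 8.47, 8.65 and 8.58 in engrafted, 9.04, 8.73 and 8.41 in deficient and 8.22, 8.26 and 8.36 in wild-type dura after stroke. Naive levels were 9.02, 9.17 and 9.09 in engrafted and 8.85, 8.91 and 8.77 in deficient dura, against 8.34, 8.12 and 7.71 in wild type. Vdr was the only one of the 10 genes in which all 6 Kit-mutant arrays exceeded all 3 wild-type arrays both after stroke and in naive dura. Among all probe sets this held in 3.63% after stroke and in 3.58% in naive dura, and the share with both was not counted. The naive part follows from the choice, since Vdr was chosen on its naive levels. The naive differences were 1.04 ± 0.15 for engrafted, 2.05-fold, and 0.79 ± 0.15 for deficient dura, 1.73-fold.

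Taking the naive arrays as a whole, 7 of 10 genes in deficient dura and 6 of 10 in engrafted dura lay above wild type in every array. Among all probe sets the shares were 5.06% and 12.1%, and 3.58% had all 6 Kit-mutant arrays above wild type, as 6 of the 10 did. The median difference of the 10 genes was 0.55 for engrafted and 0.54 for deficient dura, beside 0.00 and -0.01 over all probe sets. At an adjusted p under 0.05, 0% of all probe sets passed in engrafted and 0.0185% in deficient dura. The genes were chosen on these arrays, so nothing is read from these counts. Between the Kit-mutant groups, 0 of 10 genes passed in naive dura, where 0.0185% of probe sets did. At an unadjusted p under 0.05 (limma) there were also 0 of 10 genes, beside 4.7% of all probe sets. Vdr was higher in all engrafted than in all deficient arrays, at 0.25 ± 0.15 (adjusted p = 0.917, limma), as 8.52% of probe sets were.

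Markers of choroid plexus, the fluid-making tissue inside the brain, were unequal between arrays, and several of these genes were highest in arrays where those markers were low. The mean centred level of 9 choroid plexus markers was between -1.88 and -1.60 in 5 arrays and at least -0.83 in the other 13. The 5 were array 2 of deficient and of wild-type stroke dura, array 3 of naive engrafted dura, and arrays 1 and 3 of naive deficient dura. In each of the 3 groups with 1 such array, that array was the highest in Acp5, Ctsk, Atp6v0d2, Dmp1 and Phex. For Vdr this held in 0 of 3 groups. Without the 5 arrays, the naive engrafted difference from wild type was 1.18 for Acp5, 0.60 for Ctsk, 1.40 for Atp6v0d2, 0.91 for Ibsp and 1.04 for Vdr. The naive deficient difference, which then rests on 1 deficient array, was 0.82 for Acp5, 0.47 for Ctsk, 0.76 for Atp6v0d2, 0.20 for Ibsp and 0.85 for Vdr.

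**Figure D2:**
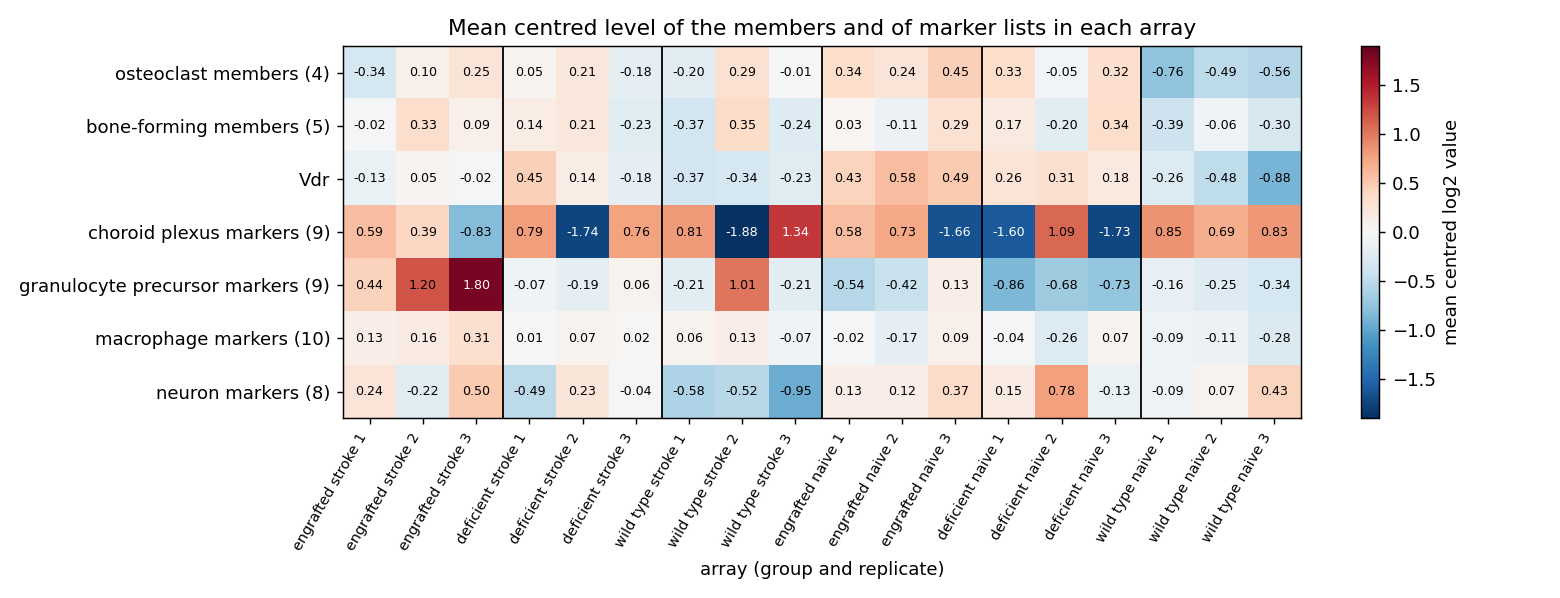
Mean centred log2 level of the 4 osteoclast genes, the 5 bone-forming genes, Vdr and 4 marker lists (number of genes in brackets) in each of the 18 arrays, red above and blue below the mean over all arrays. The osteoclast row is lowest in the 3 naive wild-type arrays (-0.76 to -0.49), and the choroid plexus row falls to between -1.88 and -1.60 in 5 arrays.

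Within each group, the array in which 1 gene was highest was compared with that of the others. The array highest in Atp6v0d2 was also highest in Acp5 in 5 of 6 groups and highest in Ctsk in 5 of 6. Acp5 shared its highest array with Ctsk, Sp7, Dmp1 and Phex in 4 of 6 groups each. Calcr, the other osteoclast gene, shared its own with Acp5 and Ctsk in 2 of 6 groups and with Atp6v0d2 in 1 of 6. Ibsp shared its highest array with Sp7, Alpl and Phex in 5 of 6 groups each, and Dmp1 with Phex in 5 of 6. Vdr shared its highest array with Acp5, Ctsk, Atp6v0d2 and Dmp1 in 0 of 6. These genes were read on the same arrays, and the counts are a description.

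In wild-type dura, stroke was set against naive to see which of these genes the injury moved. Genes of the resorbing osteoclast rose: Atp6v0d2 by 1.04 ± 0.29 (2.05-fold, adjusted p = 0.0314, limma), Ctsk by 0.66 ± 0.18 (adjusted p = 0.0320, limma) and Acp5 by 0.67 ± 0.21 (adjusted p = 0.0495, limma). Stroke arrays lay above all naive arrays in Ctsk, Atp6v0d2, Calcr and Ibsp, which among all probe sets happened in 15.8%. Acp5 overlapped, with 10.70 in 1 stroke array and 10.76 in 1 naive array. The naive wild-type arrays used here also went into the choice of the genes. In all, 3 of 10 genes rose and 0 fell, where 6.24% of probe sets rose and 10.9% changed in either direction. The choice rested on naive wild-type levels below the Kit-mutant ones. That favours differences above 0 here, so nothing is read from this count.

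The other 7 genes did not pass in wild type. Ibsp differed by 1.17 ± 0.44 (adjusted p = 0.103, limma), with stroke array 2 at 11.82 far above the others. Vdr differed by 0.23 ± 0.15 (adjusted p = 0.355, limma) and Sp7 by -0.23 ± 0.23, while Alpl, Dmp1 and Phex differed by -0.05, -0.08 and 0.01. The median was 0.66 over the 4 osteoclast genes and -0.05 over the 5 bone-forming genes, beside 0.01 over all probe sets.

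The 3 calls rest on few arrays. Without stroke array 2 of wild type, the differences were 0.83 for Atp6v0d2, 0.50 for Ctsk and 0.48 for Acp5, with adjusted p of 0.133, 0.141 and 0.208 (limma). That array was the lowest in choroid plexus markers, and its score for 9 granulocyte precursor markers was 1.01, against -0.21 in each of the other stroke arrays of wild type. Leaving out any 1 of the 3 naive wild-type arrays also left Ctsk and Atp6v0d2 short of the threshold, with adjusted p between 0.0579 and 0.0991, and Ctsk was lost without stroke array 3 of wild type too (adjusted p = 0.0608, limma). The call of Acp5 was lost in 13 of the 18 fits without 1 array, among them without naive wild-type array 1 (0.50, adjusted p = 0.166, limma), naive wild-type array 3 (0.68, adjusted p = 0.115, limma) and stroke wild-type array 3 (0.66, adjusted p = 0.119, limma). The other 9 were arrays of Kit-mutant groups, which left the difference at 0.67 and moved the adjusted p to between 0.0541 and 0.0635. Without the 5 arrays low in choroid plexus, 0 of 10 genes passed (adjusted p of 0.241 for Acp5, 0.0961 for Ctsk and 0.171 for Atp6v0d2, limma).

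**Figure D3:**
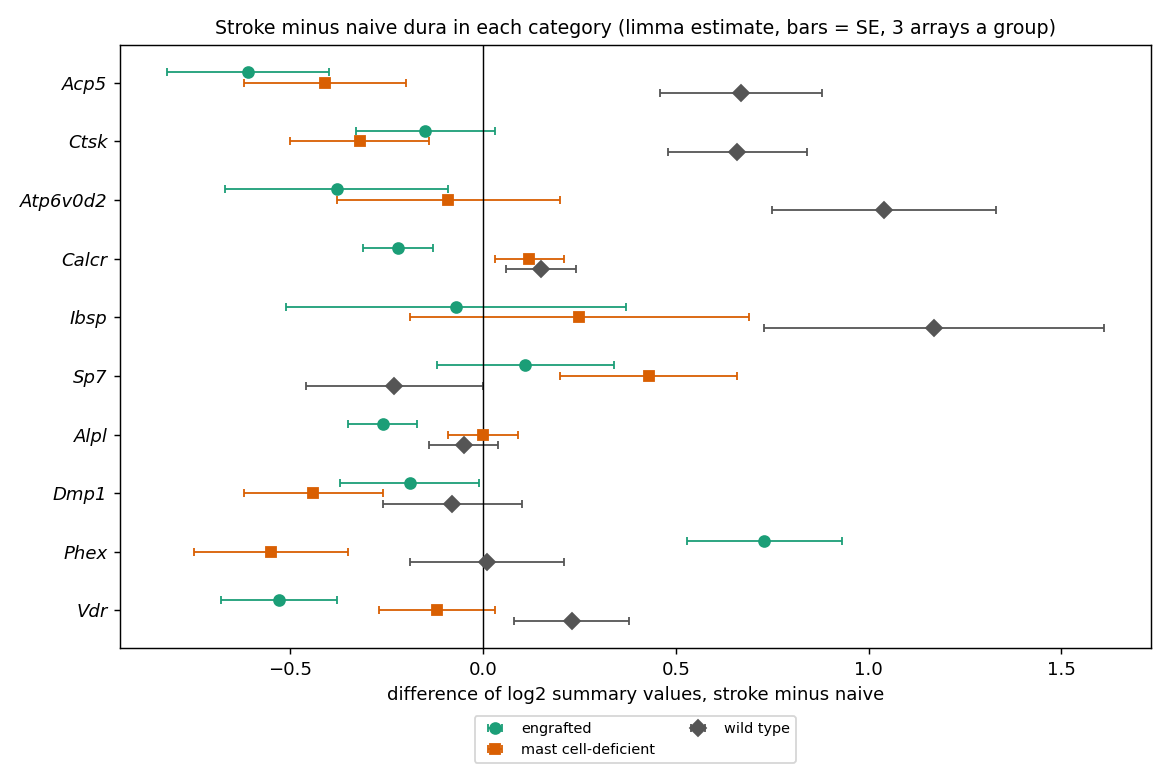
Stroke minus naive difference of log2 values for each gene in engrafted (circles), deficient (squares) and wild-type dura (diamonds), with the limma SE as bars and 3 arrays in each group. In wild type Acp5, Ctsk and Atp6v0d2 lie at 0.66 to 1.04, and in both Kit-mutant categories they lie below 0.

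Of 13 genes of osteoclast differentiation, 6 rose, 0 fell and 7 did not pass in wild-type dura after stroke: Spi1, the transcription factor PU.1 (0.78 ± 0.16), Itgb3, the integrin chain of the sealing zone (0.67 ± 0.18), Tnfrsf11a, the RANKL receptor RANK (0.60 ± 0.09), Ocstamp, a fusion protein (0.60 ± 0.11), Trem2 (0.44 ± 0.09) and its adaptor Tyrobp (0.39 ± 0.10). Their adjusted p lay between 0.000635 and 0.0264 (limma). The median over the list was 0.39, beside 0.01 over all probe sets, of which 6.24% rose. The naive wild-type arrays used here also went into the choice of the 10 genes. Levels of Tnfrsf11a were 8.81, 8.83 and 8.59 after stroke, against 8.11, 8.31 and 8.00 in naive wild type. Ocstamp read 7.92, 8.47 and 8.27 after stroke, against 7.61, 7.52 and 7.73 in naive wild type, so neither gene overlapped. PU.1, TREM2 and TYROBP are made by macrophages as well, and of 10 macrophage markers 4 rose and 0 fell, with a median of 0.18. The macrophage score lay between -0.07 and 0.13 in wild-type stroke arrays, against -0.28 to -0.09 in naive ones, and its part in these differences was not tested.

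Among 12 measured genes of acid secretion and matrix digestion, 3 rose and 0 fell, beside 6.24% of all probe sets that rose, with a median of 0.05. Mmp9, a gelatinase of osteoclasts and neutrophils, rose by 1.14 ± 0.21, Mmp14, a membrane-bound collagenase, by 0.66 ± 0.14, and Tcirg1, the osteoclast a3 subunit of the proton pump, by 0.40 ± 0.10. Mmp9 read 10.89, 11.56 and 10.99 after stroke, against 9.92, 10.19 and 9.92 in naive wild type. The cytokines moved in opposite directions: Tnfsf11, which encodes RANKL, rose by 0.68 ± 0.11 (adjusted p = 0.00129, limma), and Il34, a second ligand of the M-CSF receptor, fell by 0.47 ± 0.11 (adjusted p = 0.0153, limma), out of 4 genes. RANKL levels were 9.12, 9.33 and 9.08 after stroke, against 8.59, 8.43 and 8.47 in naive wild type. In Tnfsf11, Ocstamp, Itgb3 and Mmp9 naive wild type also lay below every naive Kit-mutant array, as in 3.58% of all probe sets. Their rises are thus set against a group low among naive dura. In Tnfrsf11a, Spi1, Trem2, Tyrobp, Mmp14, Tcirg1 and Il34 the naive arrays overlapped. Itgb3, Tyrobp, Trem2 and Tcirg1 no longer passed without the 5 arrays low in choroid plexus (adjusted p of 0.0555 to 0.137, limma), whereas Tnfrsf11a, Ocstamp, Spi1, Mmp9, Mmp14, Tnfsf11 and Il34 still did. Single arrays of wild type decided some calls. Without stroke array 2, Itgb3 was at 0.58, Tyrobp at 0.28 and Tcirg1 at 0.35 (adjusted p of 0.102, 0.109 and 0.0758, limma). Without stroke array 3, Itgb3 was at 0.64 and Il34 at -0.33 (0.0818 and 0.0706), and without stroke array 1 Tcirg1 was at 0.38 (0.0544). Without naive array 1 Itgb3 was at 0.51 (0.0978), without naive array 2 Itgb3 and Tyrobp were at 0.72 and 0.39 (0.0519 and 0.0596), and without naive array 3 Tyrobp and Tcirg1 were at 0.31 and 0.33 (0.108 and 0.0876).

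**Figure D4:**
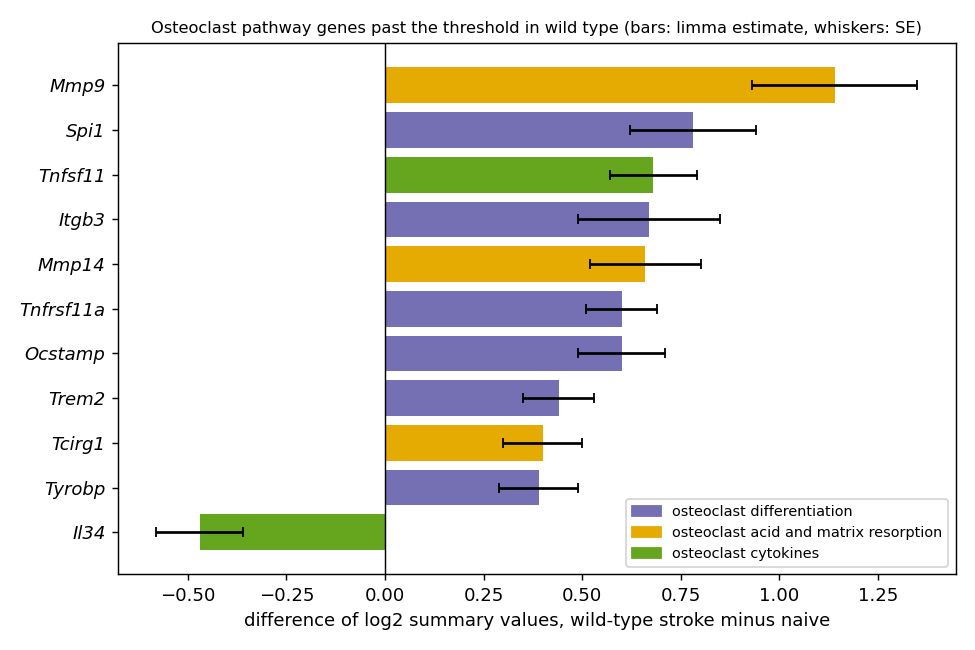
Stroke minus naive difference of log2 values in wild-type dura for the 11 genes of the osteoclast differentiation, resorption and cytokine lists that passed the threshold, as bars with the limma SE as whiskers. Mmp9 is highest at 1.14 and Il34 is the only one below 0.

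The lists around Calcr, the bone-forming genes and Vdr were read in the same comparison, where 10.9% of all probe sets passed in either direction. Of 6 partners and ligands of the calcitonin receptor, 0 passed. Of 11 osteoblast genes, Ank, a pyrophosphate transporter, rose by 0.42 ± 0.07 and Omd, a keratan sulfate proteoglycan of bone, fell by 1.23 ± 0.15. In the osteocyte list of 7 genes, Cd44, the hyaluronan receptor, rose by 1.17 ± 0.13 and Pdpn, podoplanin, by 0.49 ± 0.07. Both are found on many other cells, and Sost and Mepe, which mark osteocytes more closely, did not pass (0.21 and 0.15). In the vitamin D list of 13 genes 0 rose, and Cyp27a1, which can hydroxylate vitamin D, fell by 0.51 ± 0.11, as did Calb1, a calcium buffer that neurons also make, by 2.25 ± 0.42. Over the 8 neuron markers the median was -0.82.

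In Kit-mutant dura the stroke differences of Acp5, Ctsk and Atp6v0d2 lay below 0, and 0 of 10 genes passed in either category. In engrafted dura Acp5 differed by -0.61 ± 0.21 (adjusted p = 0.228, limma) and Vdr by -0.53 ± 0.15 (adjusted p = 0.108, limma), both with all stroke arrays below all naive arrays. Calcr (-0.22) and Alpl (-0.26) were also lower in every stroke array, and Phex was higher in every one, at 0.73 ± 0.20 (adjusted p = 0.105, limma). Among all probe sets, 7.6% were lower and 8.89% higher in every stroke array, and 1.11% passed the threshold. At an unadjusted p under 0.05 there were 5 of the 10 genes, beside 10.9% of all probe sets. The naive engrafted arrays also went into the choice of the genes. That choice rested on high naive Kit-mutant levels, which favours differences below 0 here, so nothing is read from this count.

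In deficient dura Acp5 differed by -0.41 ± 0.21, Dmp1 by -0.44 ± 0.18 and Phex by -0.55 ± 0.20 (adjusted p of 0.397, 0.317 and 0.281, limma), each with all stroke arrays below all naive arrays, as 5.92% of probe sets were. Of all probe sets 0.25% passed there, and 2 of the 10 genes had an unadjusted p under 0.05, beside 13.5% of all probe sets. The naive deficient arrays went into the choice of the genes in the same way, which again favours differences below 0. Stroke and naive Vdr overlapped in deficient dura (-0.12 ± 0.15). Among the list genes, Tnfrsf11a (0.47 ± 0.09) and Calcrl (0.67 ± 0.12), a receptor for the calcitonin relatives CGRP and adrenomedullin, rose in engrafted dura, with adjusted p of 0.0207 and 0.0151 (limma). Omd fell in both, by 0.94 ± 0.15 in engrafted and 1.06 ± 0.15 in deficient dura. Tnfrsf11a (0.44 to 0.46) and Calcrl (0.62 to 0.67) did not pass without engrafted stroke array 2 or 3 or naive array 1 or 2, with adjusted p between 0.0664 and 0.131 (limma). Omd in deficient dura did not pass without stroke array 1 or 3 (-1.03 and -0.99, adjusted p of 0.0560 and 0.0620, limma). Without the 5 arrays low in choroid plexus, Tnfrsf11a and Calcrl in engrafted dura and Omd in deficient dura did not pass (adjusted p of 0.0630, 0.0555 and 0.129, limma). Marrow markers also differed in engrafted dura: of 9 granulocyte precursor markers 2 rose, where 1.11% of all probe sets passed in either direction. Prtn3 rose by 1.79 and Ctsg by 2.19, with a median of 1.49 over the 9 markers. Their score was 0.44, 1.2 and 1.8 in engrafted stroke arrays, against -0.54, -0.42 and 0.13 in naive engrafted arrays. The score of 6 erythroid markers, of which 0 passed, was 0.16, 0.46 and 1.18 after stroke, against -0.10, -0.01 and 0.86 in naive engrafted arrays. The part of these markers in the differences of Tnfrsf11a and Calcrl was not tested.

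The difference between these responses was tested in itself. It holds, with the sign reversed, the naive Kit-mutant minus wild-type difference that led to the choice of the genes. After stroke, Acp5, Ctsk and Atp6v0d2 differed from wild type by -0.04, -0.11 and 0.02 in engrafted dura. In deficient dura these differences were -0.06, -0.21 and 0.02, so the values below come mostly from the naive groups for these 3 genes. For engrafted minus wild-type responses it was -1.28 ± 0.29 for Acp5, -1.42 ± 0.41 for Atp6v0d2, -0.80 ± 0.26 for Ctsk and -0.75 ± 0.21 for Vdr, with adjusted p of 0.139, 0.198, 0.231 and 0.188 (limma). For deficient minus wild-type responses it was -1.08 ± 0.29 for Acp5, -0.98 ± 0.26 for Ctsk, -1.13 ± 0.41 for Atp6v0d2 and -0.34 ± 0.21 for Vdr, with adjusted p of 0.193, 0.184, 0.434 and 0.840 (limma). So 0 of 10 genes passed in either, where 0.106% and 0.351% of all probe sets did, and 6 and 3 of the 10 had an unadjusted p under 0.05, beside 13.2% and 7.35% of all probe sets. Both comparisons share the wild-type arrays, and nothing is read from the unadjusted counts.

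The choice of the genes rested on naive levels, but it was made with earlier results of these data known. A comparison of stroke arrays is thus not shown to be independent of that choice. Its SE, intervals and adjusted p also draw on the naive arrays, since 1 model held all groups. After stroke, Kit-mutant and wild-type dura were compared on 9 arrays. There, engrafted and deficient dura together differed from wild type by -0.05 for Acp5 (95% interval -0.44 to 0.33), by -0.16 for Ctsk (-0.50 to 0.18) and by 0.02 for Atp6v0d2 (-0.52 to 0.55). Vdr was higher in all 6 Kit-mutant arrays, at 8.41 to 9.04, against 8.22 to 8.36 in wild type. Its difference was 0.36 ± 0.13 (95% interval 0.10 to 0.63, adjusted p = 0.159, limma), and it was the only 1 of the 10 without overlap, where 3.63% of all probe sets lay higher in every array. In all, 0 of 10 genes passed, and 2.27% of probe sets did. Sp7 (0.46 ± 0.20), Alpl (0.22 ± 0.08) and Vdr had an unadjusted p under 0.05, 3 of 10 genes beside 15.8% of all probe sets.

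Taken by category, deficient dura after stroke differed from wild type by 0.36 ± 0.09 in Alpl (adjusted p = 0.0506, limma), 0.45 ± 0.15 in Vdr, 0.25 ± 0.09 in Calcr and 0.57 ± 0.23 in Sp7 (adjusted p of 0.145, 0.169 and 0.251, limma). Calcr, Alpl and Vdr did not overlap, where 9.46% of probe sets lay higher, and 2.61% passed. Alpl, still at 0.36, passed without naive wild-type array 1, naive engrafted array 1, or stroke engrafted array 1 or 2, with adjusted p between 0.0341 and 0.0498 (limma). With array weights Calcr, Sp7, Alpl and Vdr passed, with adjusted p between 0.0204 and 0.0370 (limma). Engrafted dura after stroke differed from wild type by 0.65 ± 0.20 in Phex (adjusted p = 0.175, limma) and 0.28 ± 0.15 in Vdr (adjusted p = 0.491, limma). Neither overlapped, as in 7.96% of probe sets, and 0 of 10 genes passed beside 0.411% of probe sets. Against deficient dura, engrafted dura differed by 0.90 ± 0.20 in Phex, 0.31 ± 0.18 in Dmp1, -0.28 ± 0.09 in Alpl and -0.21 ± 0.09 in Calcr, with no overlap. Among all probe sets 3.81% were higher and 6.1% lower in every engrafted array. The adjusted p of these 4 genes lay between 0.417 and 0.819 (limma), so 0 of 10 passed, beside 0.0277% of probe sets.

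**Figure D5:**
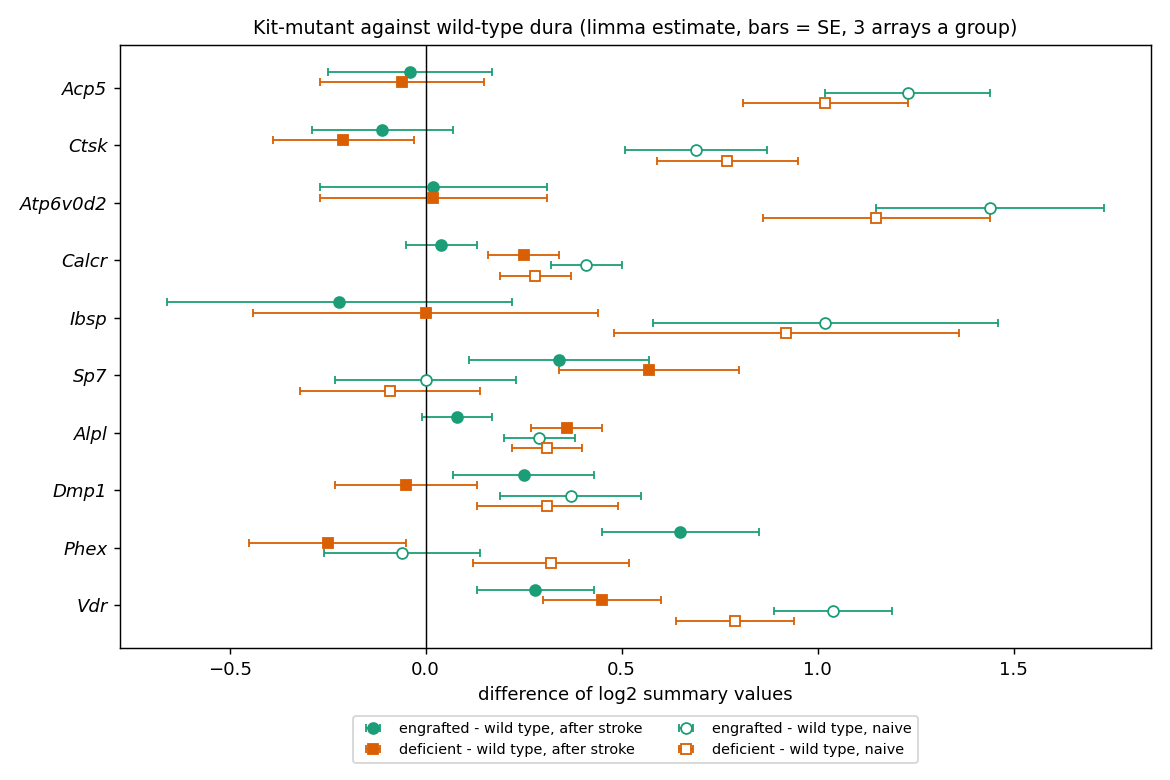
Difference of log2 values from wild type in engrafted (circles) and deficient dura (squares), filled after stroke and open in naive mice, with the limma SE as bars. Acp5, Ctsk and Atp6v0d2 lie near 0 after stroke and at 0.69 to 1.44 in naive dura, and Vdr lies above 0 in all 4 comparisons.

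In the lists, Kit-mutant and wild-type dura after stroke were also set side by side. Of 13 osteoclast differentiation genes and 12 resorption genes, 0 passed, with medians of -0.02 and -0.05, where 2.27% of all probe sets passed in either direction. Il34 was higher in Kit-mutant dura by 0.53 ± 0.10 (adjusted p = 0.0101, limma). In the osteoblast list Msx2, a homeobox factor of skull development, and Omd were higher, by 0.25 ± 0.06 and 0.55 ± 0.13 (adjusted p of 0.0494 and 0.0361, limma). Cd44 and Pdpn were lower by 0.76 ± 0.11 and 0.44 ± 0.06, and Calb1 was higher by 1.59 ± 0.36 beside a median of 0.73 over the neuron markers. Il34 did not pass without wild-type stroke array 3 (0.39, adjusted p = 0.0767, limma). Msx2 was lost in 15 of 18 fits without 1 array, 8 of them on naive arrays that left it at 0.25, with adjusted p up to 0.295 without wild-type stroke array 3 (0.21). Omd was lost without any 1 wild-type stroke array, deficient stroke array 2, engrafted stroke array 1 or 3 or naive deficient array 1 (0.48 to 0.62, adjusted p of 0.0506 to 0.130, limma). Calb1 was lost without any 1 wild-type stroke array, deficient stroke array 2 or 3, or engrafted stroke array 1 or 3 (1.32 to 1.76, adjusted p of 0.0509 to 0.132, limma). Without the 5 arrays low in choroid plexus, Il34, Msx2, Omd and Calb1 did not pass (adjusted p of 0.0606, 0.182, 0.242 and 0.212, limma). Msx2 and Calb1 did not pass with the replicate block either (0.0830 and 0.0520), nor Msx2 after a second quantile normalization (0.0815). Of 9 cartilage and tendon markers 4 were higher, beside 2.27% of all probe sets that passed in either direction. These were Comp by 1.22 ± 0.16, Chad by 1.09 ± 0.24, Fmod by 0.83 ± 0.08 and Tnmd by 0.72 ± 0.16. The mean centred level of the 9 markers ranged over -0.26 to 0.03 in Kit-mutant arrays and -0.69 to -0.49 in wild-type arrays. Their part in the differences of the bone genes was not tested.

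Genes with group means most like a member's were named from 2358 genes whose 6 group means spanned at least 0.5, by the root mean square difference of centred group means. For Acp5 they were Tm4sf19 (0.116), Tnc (0.148) and Oscar (0.161), beside a median of 0.48 over these genes. For Vdr they were Ighm (0.085), Olfml2b (0.147) and Pth1r (0.159), beside a median of 0.44. Ctsk lay nearest to Tnc (0.082), Atp6v0d2 nearest to Acp5 (0.166), and Ibsp nearest to Col6a3 (0.182). Sp7, Dmp1 and Phex lay nearest to G0s2, Cstad and Neto2, at 0.038, 0.086 and 0.156. Oscar, the osteoclast-associated receptor, read 7.55, 7.78 and 7.99 in engrafted, 7.81, 7.72 and 7.78 in deficient and 7.64, 7.90 and 7.85 in wild-type dura after stroke. In naive dura it read 8.21, 8.16 and 8.25 in engrafted and 8.22, 7.80 and 8.16 in deficient mice, against 7.22, 7.69 and 7.55 in wild type. As in Acp5, every naive Kit-mutant array of Oscar lay above naive wild type, as in 3.58% of all probe sets. Oscar was named because its group means are like those of Acp5, so this likeness follows from the pick.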

How the data were processed

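The authors deposited 1 table of log2 values for 34760 probe sets on 18 arrays. RMA, affy and R 3.0.0 are named for it per the submitters' processing notes, with no role given, and the genome build is not given in the sources used here. The 21640 probe sets with exactly 1 gene symbol were tested, while 1321 with several symbols and 11799 without one were left out. The array design gives symbols, checked through RefSeq gene identifiers for 21553 probe sets.

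The model held 1 mean for each group and used all 18 arrays together (limma 3.58.1 under R 4.3.3, empirical Bayes, 12 residual and 3.41 prior degrees of freedom), with Benjamini-Hochberg adjustment within each of 12 comparisons at 0.05. Replicates are separate mice, and precision is set by how many arrays there are, with a median SE of 0.10 for 3 arrays against 3 and of 0.08 for 6 against 3. Arrays of a group correlated at 0.985 to 0.995. No batch is recorded in the labels.

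The 10 genes and the marker lists were chosen with earlier results of these data known. Named genes are the 10, in each list up to 3 with the smallest p after stroke between Kit-mutant and wild-type dura and up to 3 in the stroke responses, every list gene past the threshold in a comparison described, and the 3 genes most like each of the 10 whose means span at least 0.5. Some genes of the lists were not analysed here. Python 3.11.15 was used for summaries, with pandas 2.3.3 for tables and matplotlib 3.10.9 for plots.

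Alternatives were leaving out each array, leaving out dim probe sets, a replicate block, a second quantile normalization, array weights and a choroid plexus covariate, plus a fit without 5 arrays. The fit was tested on simulated data for Kit-mutant against wild type after stroke (21640 probe sets, 200 changed, 5 draws). There, 74.5%, 96% and 99.5% of changes of 0.5, 1 and 2 were recovered, with 3.82% false calls. The simulated noise was drawn separately for each probe set and array. Deviations shared by many probe sets, such as those of the 5 arrays low in choroid plexus, are thus not in it. These shares are over simulated probe sets and give neither the power for the chosen genes nor the share of false calls in the measured arrays. In the measured arrays the median SE of this comparison was 0.08. It was 0.18 for Acp5, 0.25 for Atp6v0d2, 0.38 for Ibsp and 0.20 for Sp7. For Ctsk, Dmp1, Phex and Vdr the SE was 0.13 to 0.17, and for Alpl and Calcr 0.08 and 0.07.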

Additional observations from a re-analysis of the deposited data

Results flagged for a closer look

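Mmp9, the gelatinase of osteoclasts and neutrophils, had a deficient minus wild-type response to stroke of -1.48 ± 0.29 (adjusted p = 0.0414, limma), with a stroke difference of -0.34 in deficient and 1.14 in wild-type dura. In engrafted dura the stroke difference was -0.16, and the engrafted minus wild-type response was -1.30 ± 0.29 (adjusted p = 0.138, limma). Levels after stroke were 10.74, 10.74 and 10.28 in deficient dura, and naive levels there were 10.92, 10.69 and 11.17. The naive deficient arrays stood above the naive wild-type arrays (9.92, 10.19 and 9.92), so this difference rests on the naive groups as well as on the stroke groups. It failed the threshold in 14 of the 18 fits without 1 array (-1.57 to -1.27, adjusted p up to 0.130, limma), passing only without naive deficient array 2, stroke wild-type array 1 or stroke engrafted array 1 or 3, and it failed in the fit with the replicate block (adjusted p = 0.0622, limma) and in the fit without the 5 arrays low in choroid plexus markers (-1.11, adjusted p = 0.437, limma).

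Cd44, the hyaluronan receptor, had a deficient minus wild-type response of -1.31 ± 0.18 (adjusted p = 0.00473, limma), with a stroke difference of -0.14 in deficient and 1.17 in wild-type dura. After stroke it read 8.37, 8.38 and 8.18 in deficient dura, against 9.37, 9.41 and 9.22 in wild type. In engrafted dura the stroke difference was 0.46, and the engrafted minus wild-type response was -0.71 ± 0.18 (adjusted p = 0.175, limma). In naive dura it read 8.44, 8.27 and 8.65 in deficient mice, against 8.26, 8.23 and 7.99 in wild type. The result passed in 18 of 18 fits without 1 array but not without the 5 arrays (-1.13, adjusted p = 0.244, limma), where naive deficient dura is left with 1 array.

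The stroke differences of Phex, neither past the threshold, lay in opposite directions in the Kit-mutant categories. Every stroke array lay above every naive array in engrafted dura (0.73 ± 0.20) and below every naive array in deficient dura (-0.55). The difference between these responses was not tested.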

How the results depend on the processing

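Of the 10 genes, the number passing in wild type after stroke was 3, 0 without the 5 arrays low in choroid plexus markers (an alternative chosen after seeing the data) and 0 to 3 when 1 array was left out. With the replicate block it was 2, since Ctsk had an adjusted p of 0.0521. For deficient against wild-type dura after stroke it was 0, but 4 with array weights, 1 each with dim probe sets left out, a second quantile normalization or the choroid plexus covariate (Alpl), and 0 to 1 without 1 array. The covariate also gave 1 in engrafted stroke against naive dura (Phex), and array weights gave 1 in the deficient minus wild-type response (Acp5).

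Over all probe sets, the counts with array weights were 1743 (565 in the fit reported) for deficient and 199 (89) for engrafted against wild type after stroke, 1318 (491) for both together, 1326 (54) and 394 (241) for stroke in deficient and engrafted dura, 305 (76) and 42 (23) for the responses of deficient and engrafted minus wild type, and 36 (4), 164 (0) and 8 (4) for naive deficient and engrafted against wild type and against each other. Without the 5 arrays they were 95, 28, 129, 15, 98, 6 and 8 in the same order, 1368 (2352) for stroke in wild type and 1 for naive engrafted against wild type. The covariate gave 146 for engrafted against wild type after stroke, and 99 and 411 for stroke in deficient and engrafted dura. The replicate block gave 57 for engrafted against wild type after stroke, 146 for stroke in engrafted dura, 46 and 11 for the responses and 2 for naive engrafted against wild type, where the second normalization gave 3.

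Without 1 array the ranges were 226 to 632, 29 to 333 and 152 to 735 for deficient, engrafted and both against wild type after stroke, 4 to 39 for engrafted against deficient after stroke, 1371 to 2666, 8 to 56 and 60 to 396 for stroke in wild type, deficient and engrafted dura, 31 to 117 and 8 to 52 for the responses, and 3 to 10, 0 to 6 and 3 to 7 for the naive comparisons. Values near 0 changed sign: Acp5 in Kit-mutant against wild-type dura after stroke was 0.07 with array weights, 0.09 without the 5 arrays and -0.26 to 0.14 without 1 array, Atp6v0d2 was 0.00 with the covariate and -0.10 to 0.23 without 1 array, and Cd44 after stroke in deficient dura was 0.01 without the 5 arrays. The cause was not tested. Replicate numbers did not pair the samples: deviations of same-numbered arrays correlated between -0.609 and 0.603 (median -0.0564, 45 pairs), against a median of 0.0142 for other numbers (90 pairs). Precision is limited by 3 arrays a group (median SE of 0.10), and for Calcr also by a signal near the lower quartile of the arrays.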
